A study of Mus musculus with 16 samples.

Results

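Interferons are secreted signals of viral infection that act through cell surface receptors to switch on a set of antiviral genes. The transcripts described here are those of the Ifitm genes and of 4 further interferon response genes (Irf7, Isg15, Ifih1 and Bst2) in mouse embryos at E9.5 with and without functional Smchd1, a chromatin protein involved in X inactivation and in silencing autosomal gene clusters. Members were all probes of an Illumina MouseRef-8 v2.0 BeadChip whose platform annotation gave the symbol Ifitm1, Ifitm2, Ifitm3, Irf7, Isg15, Ifih1 or Bst2, which yielded 9 of 25697 probes and 7 of 16593 named genes. Ifitm3 was chosen for its higher level in mutants of both sexes, so that its genotype difference is given below as a description, and its calls are printed only as counts beside the share of all genes. Only 2 of the 9 probes, 1 each for Ifitm2 and Ifitm3, exceeded a log2 value of 7 on at least 4 of the 16 arrays, the filter that left 9785 probes and 6999 genes for testing.

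Each array was hybridised with RNA from 1 whole embryo of the FVB/n strain. The 4 groups were Smchd1+/+ (wildtype) females, Smchd1+/+ males, Smchd1MommeD1/MommeD1 females and Smchd1MommeD1/MommeD1 males, with 4 arrays in each. MommeD1 is a chemically induced nonsense mutation of Smchd1 that the mutants carried on both chromosomes, and embryos came from matings between heterozygous carriers. The arrays lay on 2 chips, with 2 arrays of every group on each. In mouse development the homozygous allele is known to be lethal to females at midgestation, whereas many males survive longer. The authors propose that female mutants, though they looked normal, had begun to fail at the stage examined.

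Values were log2 intensities normalised between arrays, with a median of 6.34 over arrays. Smchd1 itself, a check of the genotype labels, lay between 9.72 and 9.98 in wildtype and between 7.34 and 7.60 in MommeD1 embryos. On 3 arrays, MommeD1 female 2, MommeD1 male 1 and wildtype male 3, the 8 tested transcripts of yolk sac endoderm (among them Ttr, Apoa1 and Apoa2) averaged 2.36, 1.36 and 1.32 log2 units above their overall means, whereas no other array exceeded 0.66. The Ifitm3 and Ifitm2 differences, the counts of pathway and neighbouring genes and the marker calls are therefore also given without these 3 arrays, which for all but Ifitm3 and the female and male pathway counts was chosen after seeing the data. In RNA from whole embryos, fewer cells of a type and less RNA per cell cannot be told apart.

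Ifitm1, Ifitm2 and Ifitm3 encode small membrane proteins that interfere with the entry of enveloped viruses and lie in a cluster on mouse chromosome 7. In mouse embryos Ifitm3, also called fragilis, is known as a marker of early primordial germ cells. Irf7 is a transcription factor that amplifies type I interferon production, Ifih1 (MDA5) is a cytoplasmic sensor of double-stranded RNA, Isg15 is a ubiquitin-like modifier of proteins, and Bst2 (tetherin) holds budding virus particles at the cell surface. Signalling from type I interferon receptors through Jak kinases and Stat proteins ends at the interferon-stimulated response element, a promoter motif built from repeats of GAAA.

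The sequence that carried the Ifitm3 measurement is shown first, since every Ifitm3 value below comes from this single probe of 50 bases. It is given 5′ to 3′ as the probe annotation of the study lists it, with no part marked.
Ifitm3 probe ILMN_2658501: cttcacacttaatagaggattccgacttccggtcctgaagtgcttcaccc

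Promoter windows of the members were then searched for the core of the response element, because it is the sequence through which interferon acts on these genes. Windows ran from 250 bases before to 50 bases after the RefSeq start of each gene (GRCm38.p6), and the motif searched on both strands, overlaps included, was GAAANNGAAA. It was found in the windows of 5 of the 7 genes, those of Ifitm2, Ifitm3, Isg15, Ifih1 and Bst2, and in 1131 of 32851 windows (3.44%) over all genes. The windows of Ifitm1 and Irf7 held no match, which says only that these letters are not in those 300 bases. The stretches below show each match with its flanks on the strand of the gene, with the matched bases in capitals.
Ifitm2, chr7:140955978-140956027, minus strand: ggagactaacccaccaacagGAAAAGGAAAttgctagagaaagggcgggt
Ifitm3, chr7:141010696-141010762, minus strand: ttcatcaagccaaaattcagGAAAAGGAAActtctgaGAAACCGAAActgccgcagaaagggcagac
Isg15, chr4:156200855-156200916, minus strand: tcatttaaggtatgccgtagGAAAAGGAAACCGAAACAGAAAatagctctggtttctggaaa
Ifih1, chr2:62646206-62646243, minus strand: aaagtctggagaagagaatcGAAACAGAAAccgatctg
Bst2, chr8:71537567-71537622, minus strand: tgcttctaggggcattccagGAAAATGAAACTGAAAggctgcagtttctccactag

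The Ifitm2 and Ifitm3 windows shared the match GAAAAGGAAA, and Ifitm3 alone of this pair carried a further match downstream. The GAAANNGAAA matches of Ifitm3 and Ifih1 lay after the annotated start, and those of Ifitm2, Isg15 and Bst2 before it. The Stat dimer site TTCNNNGAA, searched likewise, was found in 2 of the 7 windows, those of Ifitm3 and Bst2. It was found in 8.30% of all windows. A match describes the sequence and not a site in use, and no binding was measured in these embryos.

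Ifitm3 transcript levels were higher in MommeD1 than in wildtype embryos of both sexes. In females, the 4 wildtype embryos had log2 values of 9.16, 9.15, 9.18 and 9.12, and the 4 MommeD1 embryos had 9.42, 9.5, 9.30 and 9.38. In males, the wildtype values were 9.08, 8.98, 8.94 and 9.04, and the MommeD1 values were 9.23, 9.31, 9.40 and 9.39. The genotypes did not overlap in either sex, and every MommeD1 embryo, the lowest at 9.23, was above every wildtype embryo, the highest at 9.18.

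Among females the group mean was 9.15 ± 0.03 for wildtype and 9.40 ± 0.08 for MommeD1 embryos (SD, n = 4). Among males it was 9.01 ± 0.07 for wildtype and 9.33 ± 0.08 for MommeD1 embryos. The difference was 0.25 ± 0.06 (SE) in females, a 1.19-fold higher level, and 0.32 ± 0.06 in males, a 1.25-fold higher level. These are small differences on the log2 scale, and each was larger than the spread within its groups. The female difference was smaller than the male difference by 0.07 with an SE of 0.08. Averaged over both sexes, the difference was 0.28 ± 0.04, or 1.22-fold.

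**Figure D1:**
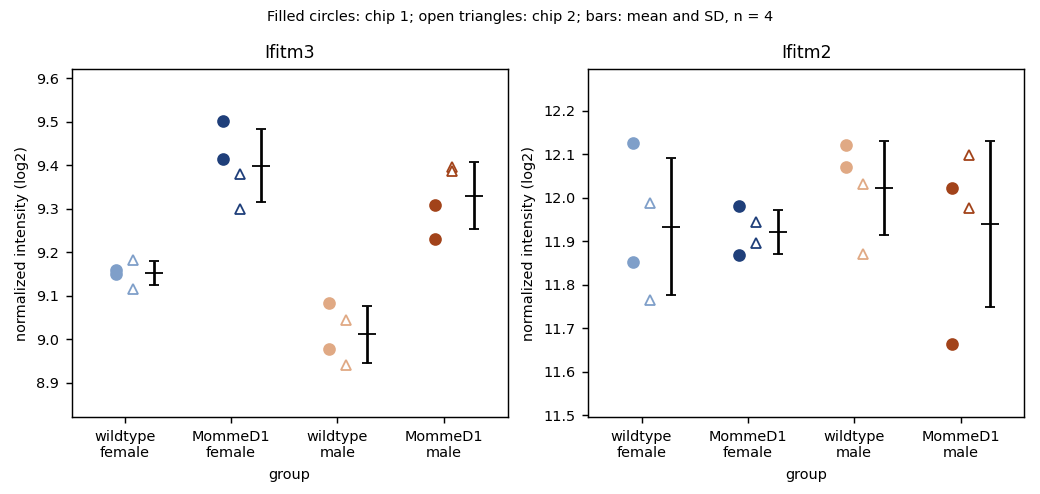
Normalised log2 intensity (vertical axes, which do not start at 0 and span the same range) of Ifitm3 and Ifitm2 in the 4 groups, 1 symbol per embryo, with filled circles for chip 1, open triangles for chip 2 and bars for the mean and SD of 4 embryos. For Ifitm3 all 8 MommeD1 embryos lie at 9.23 or higher and all 8 wildtype embryos at 9.18 or lower, while for Ifitm2 the genotypes overlap in both sexes.

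A complete separation of the 8 MommeD1 from the 8 wildtype embryos with MommeD1 higher was seen for 46 of 6999 tested genes (0.657%). Within those 46 genes Ifitm3 ranked 21 by its mean difference, and the distance between its lowest MommeD1 and highest wildtype embryo was 0.049. In limma across all tested genes, 1 of the 2 tested members, Ifitm3, was past an adjusted p of 0.05 with a higher level in females, where 7.47% of genes were called and 4.14% were called as higher. The same held in males, where 0.114% of genes were called and 0.100% were called as higher, and for the mean of both sexes, where 11.0% were called. The male call was lost with no filter, with either chip alone, with the male arrays alone, with the replicate number as a block (0 members called) and without any 1 of MommeD1 males 2, 3 and 4 and wildtype males 2 and 3. The female call was lost with no filter, with either chip alone and without MommeD1 female 2. Since Ifitm3 was chosen on these contrasts, nothing is read from those counts.

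The difference was seen on both chips. In females it was 0.30 on chip 1 and 0.19 on chip 2, and in males it was 0.24 on chip 1 and 0.40 on chip 2, each from 2 embryos per genotype. Without the 3 arrays high in yolk sac transcripts it was 0.21 in females and 0.33 in males. Leaving out 1 embryo at a time gave differences of 0.21 to 0.28 in females and of 0.29 to 0.35 in males.

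The wildtype sexes were also compared. The wildtype values of Ifitm3 entered the contrasts on which it was chosen, so this too is a description. Each of the 4 wildtype females was above each of the 4 wildtype males for Ifitm3, as for 1.07% of tested genes, with a mean difference of 0.14 ± 0.06 (1.10-fold). Neither tested member was called in this comparison, in which 0.0714% of genes were called.

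Ifitm2, which shares the chromosome 7 cluster and the motif with Ifitm3, lay far above the filter on every array but showed no genotype difference that passed the test. Among females its log2 values were 12.13, 11.85, 11.77 and 11.99 for wildtype and 11.87, 11.98, 11.94 and 11.90 for MommeD1 embryos. Among males they were 12.12, 12.07, 12.03 and 11.87 for wildtype and 11.66, 12.02, 11.98 and 12.10 for MommeD1 embryos. MommeD1 male 1 gave the lowest value of all, and the genotypes overlapped in both sexes.

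The Ifitm2 difference was −0.01 ± 0.09 (SE) in females, between means of 11.93 ± 0.16 and 11.92 ± 0.05 (SD, n = 4), with an adjusted p of 0.957 in limma. In males it was −0.08 ± 0.09, between means of 12.02 ± 0.11 and 11.94 ± 0.19, with an adjusted p of 0.764. Averaged over the sexes it was −0.05 ± 0.06 (adjusted p = 0.672). Without MommeD1 male 1 the male difference was 0.01 ± 0.08 (adjusted p = 0.971), so that its sign rested on that embryo. Without the 3 arrays high in yolk sac transcripts it was −0.03 ± 0.08 in females (adjusted p = 0.867) and 0.01 ± 0.09 in males (adjusted p = 0.969). The sign of the Ifitm2 difference was not stable between chips, at −0.06 and 0.04 in females and −0.25 and 0.09 in males. Neither the female and male effects (0.07 ± 0.13, adjusted p = 0.941) nor the wildtype sexes (−0.09 ± 0.09, adjusted p = 0.999) differed past the threshold for Ifitm2. No tested member was called for a difference between the female and male effects, where 0.357% of genes were called.

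**Figure D2:**
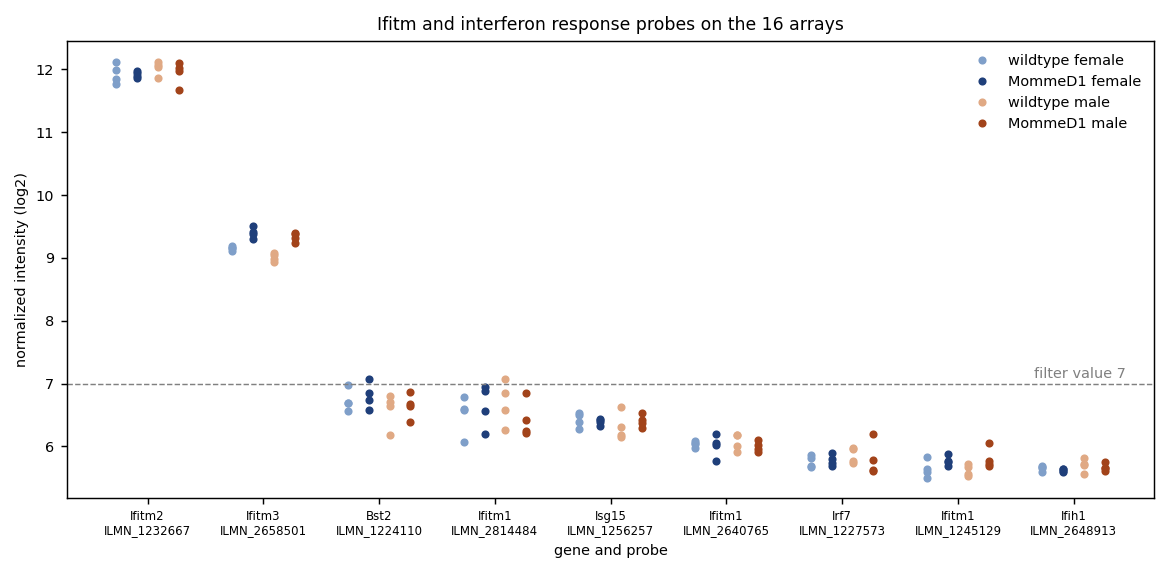
Normalised log2 intensity (vertical axis) of the 9 member probes (horizontal axis), 1 point per embryo and 1 colour per group, with the filter value of 7 as a dashed line. Only the Ifitm2 and Ifitm3 probes lie above the line on all 16 arrays, and the other 7 probes lie at or under 7.07.

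The other 5 genes, with 7 probes, stayed under the filter, with probe means of 5.66 to 6.69 against the array median of 6.34, so that their transcripts were not measured well enough to be tested with the others. The label of an interferon response thus rested here on Ifitm2 and Ifitm3 alone. Differences for these 7 probes come from a fit over all 25697 probes, which called 1.42% of probes in females and 0.0428% in males. Of the 9 member probes, that fit called 0 in females and 0 in males, with 1 of the 7 dim probes at an unadjusted p under 0.05 in males. The share of all probes at that unadjusted p was not counted, so nothing is read from this 1 probe.

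Ifitm1 had 3 probes, none of which separated the genotypes. The brightest of them, ILMN_2814484, had values among females of 6.60, 6.78, 6.06 and 6.58 for wildtype and 6.57, 6.94, 6.19 and 6.88 for MommeD1 embryos. Among males it had 7.07, 6.85, 6.58 and 6.27 for wildtype and 6.22, 6.43, 6.24 and 6.85 for MommeD1 embryos. Its difference was 0.14 ± 0.17 in females and −0.26 ± 0.17 in males, of opposite sign and within the spread of the embryos. The probe ILMN_1245129 lay between 5.50 and 6.06 with differences of 0.13 ± 0.08 in females and 0.18 ± 0.08 in males, the latter with an unadjusted p of 0.0381 and an adjusted p of 0.666. The third, ILMN_2640765, lay between 5.77 and 6.20 with differences of −0.02 in females and −0.07 in males. The 3 probes of Ifitm1 thus disagreed in the sign of the male difference.

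Bst2 values of the female embryos were 6.98, 6.57, 6.68 and 6.70 with the wildtype and 6.84, 6.73, 7.07 and 6.58 with the MommeD1 genotype. Those of the male embryos were 6.70, 6.81, 6.65 and 6.18 with the wildtype and 6.86, 6.64, 6.68 and 6.39 with the MommeD1 genotype. The genotypes overlapped, with differences of 0.08 ± 0.12 in females and 0.06 ± 0.12 in males. Isg15, whose promoter window held the longest run of matches, lay between 6.15 and 6.62 on all arrays and differed by −0.03 ± 0.09 in females and 0.09 ± 0.09 in males. Irf7 lay between 5.62 and 6.19 and differed by 0.03 ± 0.10 in females and −0.05 ± 0.10 in males. Ifih1 lay between 5.57 and 5.81 and differed by −0.04 ± 0.06 in females and −0.03 ± 0.06 in males. At these intensities a change in a dim transcript may not have been detectable.

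The wider interferon pathway, 127 genes on the array besides the members, was examined in 6 lists, and 34 of these genes passed the filter. With limma across all genes, 0 of the 34 were called in females (3 at an unadjusted p under 0.05) and 0 in males (1 at an unadjusted p under 0.05). Over all tested genes, 7.47% were called and 25.0% had an unadjusted p under 0.05 in females, and 0.114% and 11.2% in males. In each sex 20 of the 34 had a difference above 0, with a median of 0.013 in females against −0.0085 over all tested genes, and of 0.0068 in males against 0.00083. For the mean of both sexes 1 of the 34 was called, the Jak kinase gene Tyk2, at 0.18 ± 0.06 (adjusted p = 0.0478), where 11.0% of all tested genes were called. Without the 3 arrays high in yolk sac transcripts 0 of the 34 were called in either sex, and Tyk2 was at 0.17 ± 0.06 for the mean of both sexes and no longer called (adjusted p = 0.0829), while Mavs, an adaptor of RNA sensors, was the 1 gene called there.

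Of the upstream components, none of the 18 interferon genes themselves and none of the other 3 Ifitm genes passed the filter. Among receptors and signalling genes 10 of 17 were tested, with median differences of −0.0070 in females and −0.0060 in males. Tyk2 differed by 0.25 ± 0.08 in females (adjusted p = 0.0549) and 0.10 ± 0.08 in males (adjusted p = 0.666). Pias1, an inhibitor of Stat signalling, differed by 0.01 in females and −0.02 in males, and Socs3, a feedback inhibitor of Jak kinases, by −0.06 and 0.01.

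Among nucleic acid sensors and their adaptors 9 of 23 were tested, with median differences of 0.063 in females and 0.068 in males. Irf3, the transcription factor that starts interferon production, differed by −0.08 ± 0.06 in females and −0.03 ± 0.06 in males. Its kinase Tbk1 differed by −0.03 and 0.09. Irf2, a repressor of interferon genes, differed by 0.18 ± 0.07 in females (adjusted p = 0.100) and −0.01 ± 0.07 in males.

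The interferon-induced effectors, the group of Isg15, Bst2 and the Ifitm genes, had 11 of 53 genes tested and median differences of 0.018 in females and 0.00075 in males. Irgm1, an immunity-related GTPase, was the brightest and differed by 0.12 ± 0.11 in females and 0.11 ± 0.11 in males. Shisa5 differed by 0.01 and 0.12, and Daxx, a chromatin and apoptosis regulator, by −0.08 and 0.00075. In antigen presentation 4 of 13 genes were tested, with medians of −0.021 in females and 0.050 in males. B2m, the light chain of class I molecules, differed by −0.05 ± 0.07 and 0.11 ± 0.07, and the proteasome genes Psme1 and Psmb10 by 0.04 and 0.08 and by −0.11 and 0.02.

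The remaining 93 genes were under the filter, with 121 probes of mean values 5.62 to 6.86. In the fit over all probes 1 of these, for the interferon-induced gene Ifi27 (mean 6.32), was called in females (adjusted p = 0.0345), and 0 were called in males. Another Ifi27 probe (mean 6.20) was not called in females in that limma fit (adjusted p = 0.548). Both Ifi27 means lay under the array median of 6.34. Ifi27 is named because it was the only such call, after its value was seen.

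**Figure D3:**
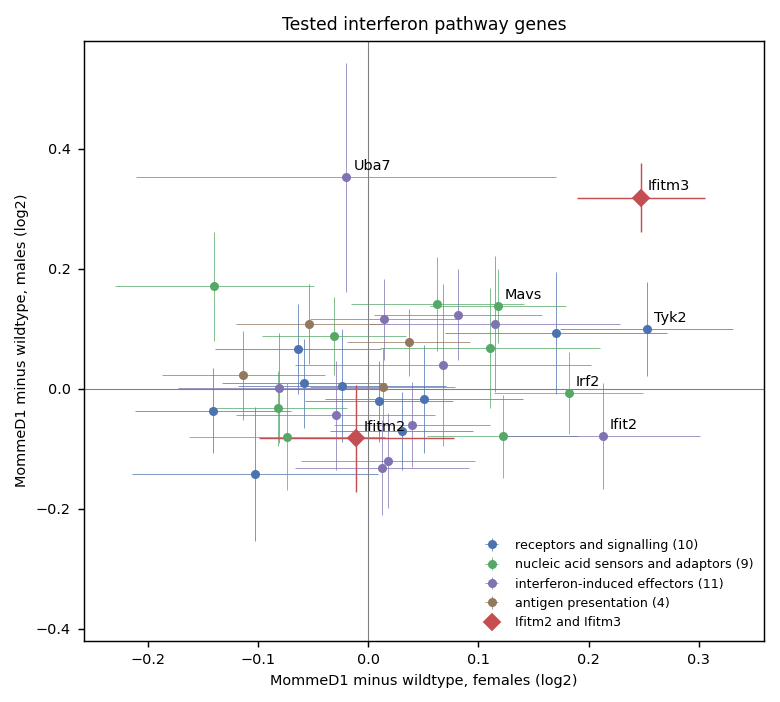
Difference between MommeD1 and wildtype embryos in females (horizontal axis, log2) against males (vertical axis, log2) for the 34 tested pathway genes, coloured by list, and for Ifitm2 and Ifitm3 (diamonds), with bars of 1 SE in each direction. Ifitm3 lies at 0.25 and 0.32, and Tyk2 lies at 0.25 and 0.10. Uba7, an interferon-induced effector named after its value was seen, lies at −0.02 and 0.35. Its male difference had an SE of 0.19 and was not called (adjusted p = 0.495 in limma). MommeD1 males ran from 7.85 to 9.25 for Uba7 and wildtype males from 7.94 to 8.32. Ifitm3 was chosen for its rise in both sexes, so its place among the pathway genes is a description.

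The tested genes next to Ifitm3 on chromosome 7 were examined for a shared difference. Of the 5 nearest tested genes on each side, 0 of 10 were called in females (limma, 2 at an unadjusted p under 0.05) and 0 in males (0 at an unadjusted p under 0.05), against 25.0% and 11.2% of all tested genes at such a p, with differences of −0.20 to 0.31 in females and −0.09 to 0.13 in males. Sct, the gene of the hormone secretin, differed by 0.31 ± 0.10 in females (adjusted p = 0.0594) and by 0.06 ± 0.10 in males. Without the 3 arrays high in yolk sac transcripts Sct was at 0.30 ± 0.08 in females and the 1 neighbour called (adjusted p = 0.0371). Psmd13, a proteasome subunit gene, differed by −0.20 ± 0.08 in females (adjusted p = 0.125) and by −0.03 in males. B4galnt4, Ptdss2, Rassf7 and Phrf1, which lie between Ifitm3 and Irf7, had differences of −0.08 to 0.05 in females and −0.08 to 0.01 in males. Bet1l, Sirt3 and Pgghg, on the side of Ifitm2, differed by 0.02, −0.04 and 0.08 in females and by 0.08, −0.09 and 0.13 in males.

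**Figure D4:**
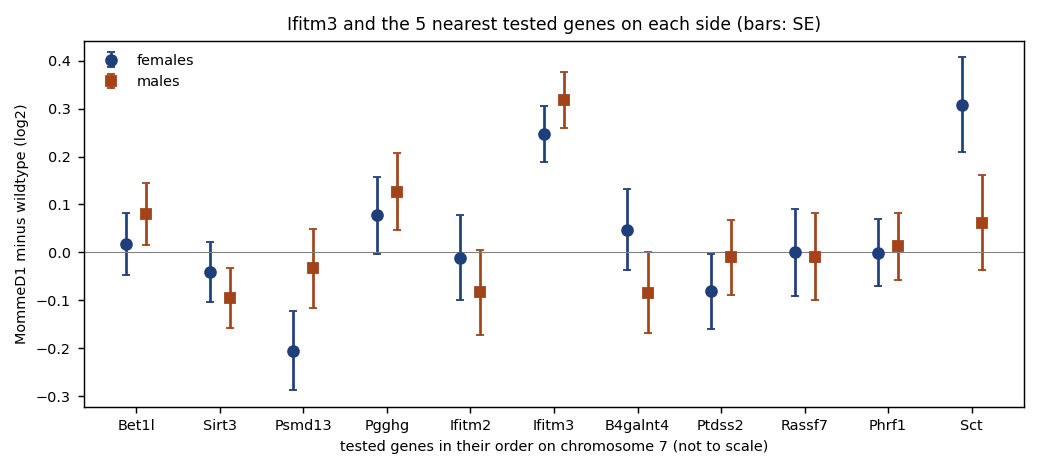
Difference between MommeD1 and wildtype embryos (vertical axis, log2) for Ifitm3 and the 5 nearest tested genes on each side, in chromosomal order and not to scale, with circles for females, squares for males and bars of 1 SE. Ifitm3 is above 0 in both sexes at 0.25 and 0.32, while Ifitm2 beside it lies at −0.01 and −0.08.

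The tested genes whose values followed Ifitm3 most closely over the 16 arrays were Pigp (Pearson r = 0.92), Klhl7 (0.91), H2bc7 (0.88), Traf4 (0.88) and Csf2ra (0.88). All 5 were higher in MommeD1 embryos, with differences of 0.14 to 0.59 in females and of 0.21 to 0.60 in males, so that the genotype difference enters these correlations. Once each group mean was removed, the 5 closest were Rbm19 (0.80), Slc8b1 (0.78), Zfp655 (0.76), Prr15 (0.72) and Commd6 (0.71). Their genotype differences ran from −0.11 to 0.10 in females and from −0.01 to 0.09 in males. The points share the 2 chips and are 16 embryos in 4 groups, and these values are descriptions chosen from 6998 genes.

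Markers of cell types that could carry Ifitm3 or interferon response transcripts were compared as mean deviations from each gene's overall mean. Over all tested genes, 25.0% in females and 11.2% in males had an unadjusted p under 0.05 in limma. Of 17 germ cell markers, 4 were tested and 0 were called in either sex (1 at an unadjusted p under 0.05 in females, 0 in males), with scores of −0.10 to 0.06 in wildtype females, −0.16 to 0.08 in MommeD1 females, −0.02 to 0.09 in wildtype males and −0.06 to 0.10 in MommeD1 males. Of 21 macrophage and blood cell markers only Laptm5 and Coro1a were tested and neither was called (1 at an unadjusted p under 0.05 in females, 0 in males). Their scores were −0.10 to 0.02, −0.10 to 0.36, −0.19 to −0.04 and −0.21 to 0.22 in the same order. Both genes had a difference above 0 in each sex. Laptm5 differed by 0.22 ± 0.08 in females and 0.14 ± 0.08 in males. Coro1a differed by 0.07 ± 0.12 in females and 0.07 ± 0.12 in males. Of the 14 endothelial markers 10 were tested, of which 5 in females and 2 in males had an unadjusted p under 0.05 and 5 in each sex had a difference above 0. Of these 10, 1 was called in females, where 7.47% of all genes were, and 0 in males. Tek, an angiopoietin receptor, fell by 0.34 ± 0.07 in MommeD1 females (adjusted p = 0.00708), with a difference of −0.28 ± 0.07 in males (adjusted p = 0.116), and without the 3 arrays it was also called in males, at −0.35 ± 0.07 (adjusted p = 0.0472). The list's scores ranged from −0.03 to 0.03, −0.04 to 0.07, −0.06 to 0.04 and −0.02 to 0.01. For the mean of both sexes, where 11.0% of all genes were called, Tek was called as lower, at −0.31 ± 0.05 (adjusted p = 0.000807 in limma). Without the 3 arrays Tek was at −0.37 ± 0.05 for that mean (adjusted p = 0.000584). Eng, a further endothelial gene, was called only in the mean of both sexes, at 0.26 ± 0.06 (adjusted p = 0.0164 in limma). Without the 3 arrays Eng was called there as well, at 0.27 ± 0.06 (adjusted p = 0.0119).

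Of 12 primitive erythroid markers 10 were tested, of which 3 in females and 9 in males had a difference above 0, with medians of −0.079 and 0.23, and 1 in each sex had an unadjusted p under 0.05. Of these 10, 1 was called in females, where 7.47% of all genes were, and 0 in males, where 0.114% were. Tfrc, the transferrin receptor, fell by 0.38 ± 0.10 in MommeD1 females (adjusted p = 0.0240 in limma). In males it was at −0.10 ± 0.10, the 1 gene of the list below 0 there. Without the 3 arrays Tfrc was not called in females (−0.32 ± 0.11, adjusted p = 0.0871). For the mean of both sexes, where 11.0% of all genes were called, Tfrc was called at −0.24 ± 0.07 (adjusted p = 0.0347). Without the 3 arrays Alas2 was the 1 erythroid gene called for that mean, as higher. Scores of this list ranged from −0.24 to 0.29 in wildtype females, −0.15 to −0.02 in MommeD1 females, −0.28 to 0.14 in wildtype males and −0.24 to 0.61 in MommeD1 males. The 8 tested of 15 yolk sac endoderm markers gave scores of −0.72 to 0.66, −0.94 to 2.36, −1.02 to 1.32 and −1.03 to 1.36, and the 4 tested of 10 decidua and trophoblast markers gave −0.11 to 0.05, −0.03 to 0.16, −0.06 to 0.09 and −0.11 to 0.10, with no gene of either list called (at an unadjusted p under 0.05, 0 of the yolk sac genes in either sex and 2 of the decidua and trophoblast genes in females and 1 in males). All 8 tested yolk sac genes had a difference above 0 in females (median 0.35), and 4 did in males (median −0.011). Without the 3 arrays 1 of the 8 did in females (median −0.28) and 4 did in males (median 0.0075). The ranges of all 6 lists overlapped between genotypes in each sex. The part of cell composition in the Ifitm3 difference was not tested.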

How the data were processed

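RNA of 16 embryos was hybridised to Illumina MouseRef-8 v2.0 BeadChips, 1 array per embryo. The authors processed the arrays in R with beadarray and limma and deposited log2 intensities normalised between arrays; all arrays share 1 minimum and 1 maximum (5.26 and 14.97). The sources used here do not state the background correction or the software versions. A further table of unnormalised signals has 32 columns named by running numbers and was not used.

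Gene symbols came from the platform annotation (23978 probes with 1 symbol, 1719 with none). Probes above 7 on at least 4 arrays were kept (9785, of which 559 had no gene), and the brightest represented its gene (6999 genes). limma 3.58.1 in R 4.3.3 fitted the 4 groups as terms (12 residual degrees of freedom), with Benjamini-Hochberg adjustment over all genes and a threshold of 0.05. The code was tested on simulated data. Detection limits rest on signal, and with 4 arrays per group the number of arrays limits precision.

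The members and lists were chosen with earlier results of these data known. Named genes were the members, list genes past the threshold in any contrast or otherwise the 3 brightest of a pathway list, 5 neighbours on each side and the 5 genes most like Ifitm3 by each measure. Alternatives were other filters, probe rules, centring, array weights, moderation, chip and replicate blocks, 1 chip or sex at a time, and arrays left out. Promoter sequences are from RefSeq (GRCm38.p6), whose gene table matched 23962 named probes.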

Additional observations from a re-analysis of the deposited data

How the results depend on the processing

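The Ifitm3 difference stayed above 0 under all 28 alternatives, at 0.19 to 0.30 in females and 0.24 to 0.40 in males, the male extremes being chip 1 alone (0.24) and chip 2 alone (0.40). Its call did not stay. In females the count of members called fell from 1 to 0 with no filter, with chip 1 alone and with chip 2 alone, and ranged from 0 to 1 when embryos were left out (0 without MommeD1 female 2). In males it fell from 1 to 0 with no filter, with either chip alone, with the arrays of 1 sex only and with the replicate number as a block, and ranged from 0 to 1 when embryos were left out (0 without any 1 of MommeD1 males 2, 3 and 4 and wildtype males 2 and 3). For the mean of both sexes it was 0 with chip 1 alone and 1 otherwise. Fits on 1 chip have 2 embryos per group, and those with no filter adjust over 25697 probes. Counts of members called for the sex by genotype difference and between wildtype sexes were 0 throughout.

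The count of pathway genes called in females rose from 0 to 1 with no filter (Ifi27), with the mean of kept probes (Ifit2), and with the filter on all 16 arrays, the chip block, trend and robust moderation or the replicate block (each Tyk2); with embryos left out it ranged from 0 to 1 (Tyk2 without MommeD1 female 1 or MommeD1 male 1, 3 or 4). The cause was not tested. In males it was 0 throughout. Ifi27 and Ifit2 are named because they were these calls, and another Ifi27 probe was not called.

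The sample titles do not say whether same-numbered embryos were paired, and the main fit did not pair them. Deviations of same-numbered embryos correlated at 0.0017 to 0.40 in females and −0.065 to 0.17 in males. Of the numbers, 2 of 4 in females and 1 of 4 in males correlated best with their own. So few pairs cannot decide whether the embryos were paired. With the replicate block 1 member was called in females and 0 in males. Of 36 sets of 4 values over probes and groups, 0 held an outlying embryo by Dixon's criterion. Signal limits the 7 dim probes, which stayed under the filter.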
